A study of Mus musculus with 4 samples.

Results

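A set of genes commonly used to recognise Schwann cells and their precursors (8 of the 32948 genes in the table, chosen by name) were followed through sorted cells of the mouse aorta: Sox10, Mbp, S100b, Cdh19, Ngfr, Erbb3, L1cam and Gfra3. Of these, 7 had a row in the table, and Erbb3 was not analysed here. The cells came from the ascending aorta and arch of mice carrying Wnt1-Cre and Rosa26-mTmG, a reporter in which red membrane tdTomato is replaced by green GFP once Cre has acted. Wnt1-Cre acts in the neural crest, so GFP marks cells with a history of Wnt1 promoter activity and tdTomato marks the other cells of the wall. All 4 libraries carry both alleles. They are female GFP and female tdTomato, sorted from a single female sample, and male GFP and male tdTomato, sorted from a pool of 2 male samples. No age or treatment is given in the labels. No combination of sex and colour was replicated, sex cannot be told apart from pooling, and p-values measure only the spread between 2 suspensions.

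Schwann cells are the glia of peripheral nerves and arise from the neural crest by way of Schwann cell precursors. The transcription factor Sox10 is needed throughout the lineage, neuregulin on axons signals to the cells through the receptor Erbb3, and mature cells either wrap single axons in myelin or ensheathe bundles of thin ones. The outer wall of the aorta carries autonomic and sensory nerve fibres accompanied by such glia. The sort used the fluorescent proteins alone, with no glial marker, and the submitters labelled every library as vascular smooth muscle cells.

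The libraries held between 10094326 and 13911281 estimated counts, with the lowest total in male GFP. The GFP libraries read 12008 (female) and 9517 (male) genes at 10 counts or more, and their tdTomato partners 16227 and 15669. Among 8679 genes at a mean of at least 10 CPM (counts scaled to library size), 23.8% had at most 3 counts in male GFP and 10.2% in female GFP, against 2.29% and 2.80% in female and male tdTomato. All 10 smooth muscle markers examined had at least 10 counts in every library, and their summed level lay between 12548 and 17337 CPM.

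The defining genes of the Schwann cell lineage were at or near 0 in every library, against the name of the list. Sox10 (ENSMUSG00000033006) had 1 count in male GFP and 0 counts in each of the other 3 libraries. Mbp (ENSMUSG00000041607), which encodes myelin basic protein, likewise had 1 count in male GFP and 0 in the others. Gfra3 (ENSMUSG00000024366), the co-receptor for the neurotrophic factor artemin, had 2 counts in male GFP and 0 in the others. By counting error alone a count of 0 allows up to 3 counts, worth between 0.200 CPM (female tdTomato) and 0.319 CPM (male GFP). These 3 genes were therefore not detected above that limit in any library, and no fold is given for them. Such low counts are common in the table, where 30.1% of genes had at most 3 counts in every library. The limits cover counting error only and not transcripts lost before sequencing. The genes that were read, S100b, Cdh19, L1cam and Ngfr, are accordingly described one by one, and their levels are not taken as levels of Schwann cells. In such bulk libraries fewer cells of a type and less RNA per cell cannot be told apart.

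**Figure D1:**
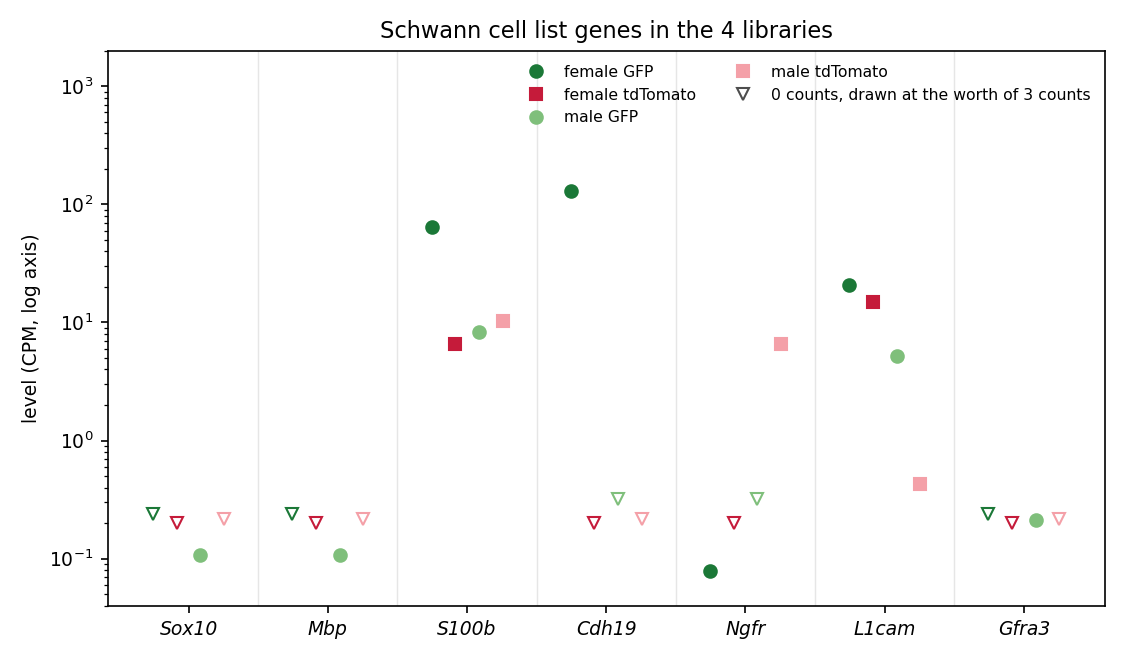
Level of each listed gene with a row in the table, in CPM on a log axis, 1 symbol per library (circles GFP, squares tdTomato, dark female, light male). Open triangles mark 0 counts and are drawn at the worth of 3 counts. Sox10, Mbp and Gfra3 stay at the detection limit throughout, Cdh19 is read in female GFP alone, and S100b and L1cam are read in all 4 libraries.

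S100b (ENSMUSG00000033208) encodes a calcium-binding protein of Schwann cells that is also made by chondrocytes and melanocytes. In the female pair it had 808 counts in GFP and 99 in tdTomato, or 64.1 and 6.61 CPM. The male pair held 78 and 144 counts, or 8.30 and 10.4 CPM. The female GFP library stood alone, and the other 3 lay close together. In the female pair the level in GFP was 9.69-fold that in tdTomato (exact 95% binomial interval 7.86 to 12.1). In the male pair it was 0.802-fold (0.601 to 1.06), an interval that includes equal levels. Between the GFP libraries the female level was 7.72-fold the male one (6.11 to 9.87), while between the tdTomato libraries the male level was 1.57-fold the female one (1.20 to 2.04). Averaged over the suspensions, the log2 ratio came to 1.47 ± 2.52 (SD, n = 2 pairs), so the spread between suspensions exceeded the mean. edgeR's quasi-likelihood test with the suspension as a block gave a log2 ratio of 1.48 and a Benjamini-Hochberg adjusted p of 1 over 15055 genes. Without the female GFP library, and then without the block, the fitted ratio was 0.04, and without the male GFP library it was 2.93. The gene Dip2a overlaps S100b on the opposite strand, and this library preparation does not mark strand. Dip2a had 307 and 317 counts in the female pair (GFP, then tdTomato) and 0 and 164 in the male pair, so reads of the overlap cannot be assigned with certainty.

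L1cam (ENSMUSG00000031391), an adhesion molecule of axons, Schwann cell precursors and non-myelinating Schwann cells, was the only listed gene on the GFP side in both pairs among those with at least 10 counts in each. The female pair held 262 counts of it in GFP and 223 in tdTomato, or 20.8 and 14.9 CPM. In the male pair the counts were 49 and 6, or 5.22 and 0.431 CPM. Both female libraries were above both male libraries, and the male tdTomato value was the lowest. The level in GFP was 1.40-fold that in tdTomato in the female pair (1.16 to 1.68) and 12.1-fold in the male pair (5.18 to 34.6). Its mean log2 ratio was 1.83 ± 1.92 (SD, n = 2 pairs), and the edgeR quasi-likelihood adjusted p was 1. Without the block the ratio turned to -0.47 when female GFP was left out and to -0.17 when male tdTomato was left out. The female tdTomato level was 34.5-fold the male tdTomato level (15.6 to 95.1), and the female GFP level 3.98-fold the male GFP level (2.93 to 5.52).

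Cdh19 (ENSMUSG00000047216), a type II cadherin of Schwann cell precursors and neural crest derivatives, was read in a single library. It had 1641 counts in female GFP, 130 CPM, and 0 counts in the other 3 libraries. The level in female GFP was at least 650-fold that in female tdTomato and at least 408-fold that in male GFP, bounds taken against 3 counts in the library at 0. Of 2514 genes with at least 1000 counts in female GFP, 8 had at most 3 counts in each of the other libraries, Cdh19 among them. The pattern of being read in 1 library alone was more frequent at lower counts. Of genes with at least 50 counts in female GFP, 2.63% had at most 3 counts in each of the others. Because the low-count filter asked for the gene in 2 libraries, Cdh19 was not in the main test. With the filter dropped, edgeR's quasi-likelihood test gave an unadjusted p of 0.0327 and an adjusted p of 0.728 over all genes with a count.

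Ngfr (ENSMUSG00000000120), the low-affinity neurotrophin receptor p75 of immature and non-myelinating Schwann cells, was read at more than 1 count in male tdTomato alone. It had 92 counts there, 6.61 CPM, with 1 count in female GFP and 0 in both remaining libraries. That level was at least 20.7-fold the level in male GFP and at least 33.0-fold that in female tdTomato. Ngfr was therefore on the other side of the sort from Cdh19, and in the other suspension. Of genes with at least 50 counts in male tdTomato, 4.06% had at most 3 counts in each of the other libraries. Ngfr was also outside the main test, and without the filter its edgeR quasi-likelihood adjusted p was 0.942.

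The 4 genes that were read did not all share a pattern over the libraries. S100b, Cdh19 and L1cam had their highest level in female GFP, whereas Ngfr was highest in male tdTomato. In the female pair, 2 of the 3 with at least 10 counts (S100b and Cdh19) were at least 2-fold higher in GFP and none was lower, where 22.9% of 17478 genes were at least 2-fold higher and 42.8% lower. In the male pair, 1 of 3 (L1cam) was at least 2-fold higher in GFP and 1 (Ngfr) was lower, against 22.4% and 53.2% of 16716 genes. Neither of the 2 with at least 10 counts in each pair (S100b and L1cam) was at least 2-fold apart in the same direction in both, against 5.19% of 14345 genes higher in both and 24% lower in both. Between the GFP libraries, 3 of 3 (S100b, Cdh19 and L1cam) were at least 2-fold lower in male than in female, as were 46.1% of 14127 genes, while 31.3% were higher. Between the tdTomato libraries, Ngfr was at least 2-fold higher in male and L1cam lower, against 24.7% and 27.3% of 18471 genes. The edgeR test called 0 of 15055 genes overall (0%), with 1295 at an unadjusted p under 0.05, and called neither S100b nor L1cam, the 2 of 7 listed genes that passed its low-count filter. DESeq2 on the same pairs placed 0.325% of genes higher in GFP and 7.36% lower, and called neither S100b (adjusted p = 0.817) nor L1cam (adjusted p = 0.691). limma-voom called 0 genes.

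**Figure D2:**
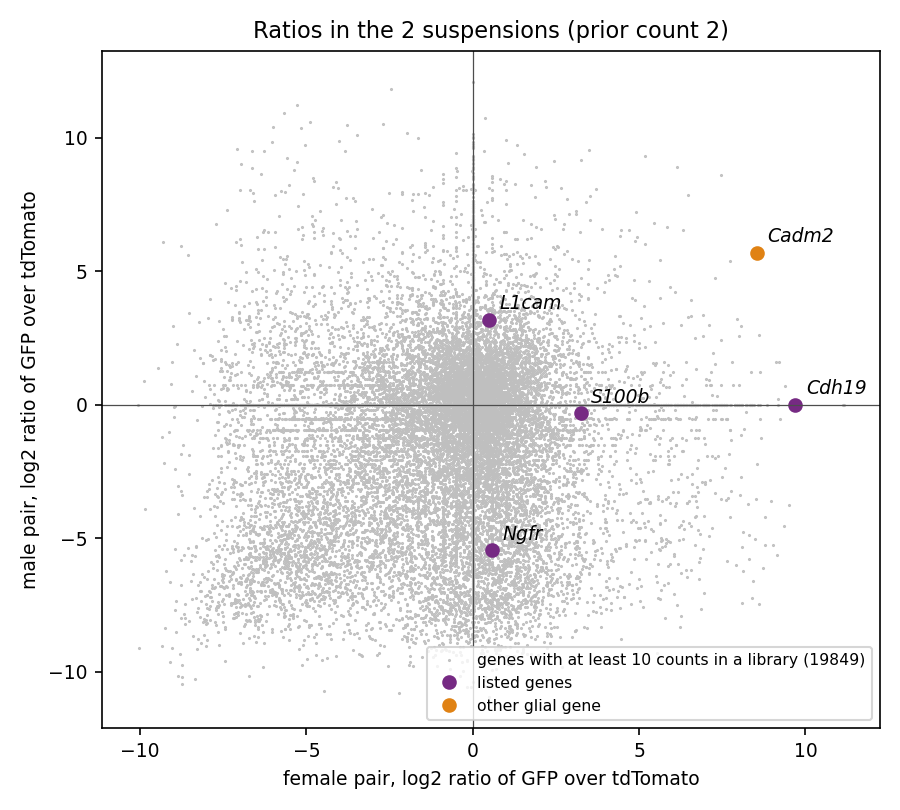
Log2 ratio of GFP over tdTomato in the female pair (x axis) against the male pair (y axis), each with a prior count of 2. Grey points are the 19849 genes with at least 10 counts in a library, purple points the listed genes that reached that count, and the orange point Cadm2. Cdh19 and S100b lie far to the right near 0 on the male axis, Ngfr lies low, and Cadm2 lies in the upper right corner.

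Per kilobase of the longest annotated transcript, the order of levels in female GFP was S100b at 43.2, Cdh19 at 33.3 and L1cam at 4.05 CPM per kilobase. In female tdTomato S100b stood at 4.46 and L1cam at 2.91 CPM per kilobase. In male GFP the values were 5.60 for S100b and 1.02 for L1cam. In male tdTomato they were 6.98 for S100b, 1.92 for Ngfr and 0.0841 for L1cam. S100b was thus the most abundant listed gene per length in each library, with L1cam below it wherever both were read. With 1 library per condition these orders carry no replicate error, and transcript ends used in these cells may differ from the annotation.

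Where 2 values follow for a colour below, the first is female and the second male. Other Schwann cell genes were taken from lists of myelin genes and of glial state genes. Cadm2 (ENSMUSG00000064115), an immunoglobulin-type adhesion molecule of neurons and glia, was read in GFP cells of both suspensions and not in tdTomato cells. It had 730 and 75 counts in the female and male GFP libraries (57.9 and 7.99 CPM) and 0 in both tdTomato libraries. The GFP level was at least 289-fold and at least 37.0-fold that in tdTomato. DESeq2 called it (adjusted p = 0.00474), while edgeR's quasi-likelihood test (adjusted p = 0.577) and limma-voom (adjusted p = 0.228) did not. Ptprz1, of the same list, had log2 ratios of 0.88 (female) and 1.09 (male), which became 1.01 and 1.33 with DESeq2's size factors and 0.66 and 0.87 with library totals alone.

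**Figure D3:**
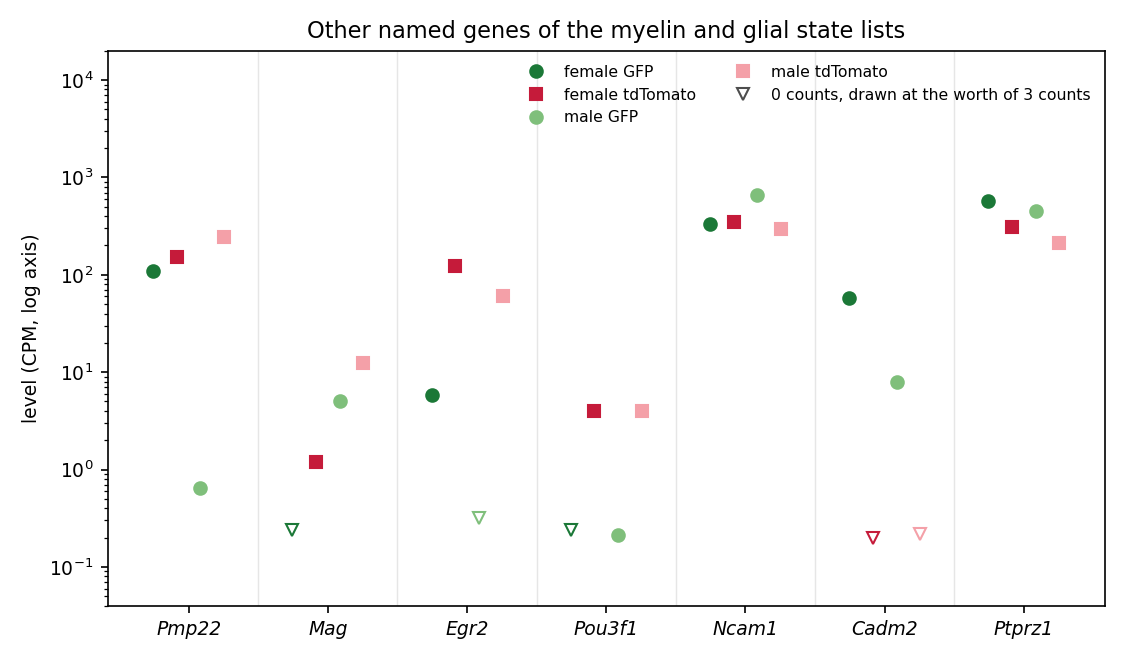
Level in CPM (log axis) of the other named genes of the myelin and glial state lists, 1 symbol per library, drawn as in the plot of the listed genes. Cadm2 is at least 2-fold higher in GFP in both pairs, as are 5.19% of all genes with at least 10 counts in each pair. Egr2 and Pou3f1 are at least 2-fold lower in both, as are 24%. Pmp22 is low in male GFP alone.

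Of 15 myelin genes, 10 had a row in the table. In the female pair, 2 of 7 with at least 10 counts were at least 2-fold higher in GFP and 3 lower, against 22.9% and 42.8% of all genes, with a median log2 ratio of -0.49 against -0.47 over all genes. In the male pair, 2 of 7 were higher and 4 lower, against 22.4% and 53.2%, with a median of -1.26 against -1.36. Both counts lay near the shares over all genes. Pmp22, a myelin membrane protein that many other cells express, measured 109 and 154 CPM in the female pair (GFP, then tdTomato) and 0.639 and 247 CPM in the male pair. Mag, the myelin-associated glycoprotein, was on the tdTomato side, at 0 and 5.11 CPM in female and male GFP against 1.20 and 12.4 CPM in tdTomato. No myelin gene passed the edgeR test. Neither Pmp22 (adjusted p = 0.226) nor Mag (adjusted p = 0.525) was called by DESeq2.

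Of 20 glial state genes, 14 had a row, and 8 had at least 10 counts in each pair. Of these 8, 1 (Cadm2) was at least 2-fold higher in GFP in both pairs and 2 (Egr2 and Pou3f1) were lower in both, where 5.19% of all genes were higher and 24% lower. The share lower was near that of all genes. Egr2, the regulator that turns on myelin genes and is also an immediate early gene, measured 5.79 and 0 CPM among GFP cells and 123 and 60.2 CPM among tdTomato cells. Pou3f1, which acts before Egr2 in myelinating cells, measured 0 and 0.213 CPM against 4.01 and 4.03 CPM. DESeq2 called Egr2 as lower in GFP (adjusted p = 0.0202) and did not call Pou3f1 (adjusted p = 0.180), and edgeR's quasi-likelihood test called neither (adjusted p = 0.682 and 0.577). Ncam1 and Ptprz1, adhesion and phosphatase genes of glia with wide expression elsewhere, were abundant throughout, Ncam1 at 330 and 658 CPM among GFP cells and 346 and 293 CPM among tdTomato cells, and Ptprz1 at 572 and 453 CPM against 310 and 212 CPM. Sox2, Gfap and Gap43 had at most 2 counts in any library.

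The signalling partners of the listed receptors were read unevenly. For Erbb3, the partner receptor Erbb2 measured 3.49 and 0 CPM among GFP cells and 7.48 and 14.0 CPM among tdTomato cells. In each pair Erbb2 was at least 2-fold lower in GFP, as were 24% of all genes with at least 10 counts in each. Of the ligands of Erbb3, Nrg2 had 31 counts in female GFP (2.46 CPM) and Nrg1 had 2, and both had 0 in the other 3 libraries. The proteases that cleave neuregulin went apart. Adam17 measured 93.3 and 46.2 CPM among GFP cells and 45.5 and 9.42 CPM among tdTomato cells, with log2 ratios of 1.03 and 2.28, whereas Bace1 measured 2.78 and 0 CPM against 34.9 and 60.6 CPM. DESeq2 called Bace1 as lower in GFP (adjusted p = 0.0310), and no gene of the neuregulin list passed edgeR's test.

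Among neurotrophins and their receptors, which Ngfr belongs to, Ntf3 (neurotrophin 3) measured 4.44 and 0.106 CPM among GFP cells and 111 and 35.1 CPM among tdTomato cells. DESeq2 called it as lower (adjusted p = 0.0349), and edgeR's quasi-likelihood test did not (adjusted p = 0.603). Ntrk3, its receptor, was at 103 and 135 CPM among GFP cells and 157 and 109 CPM among tdTomato cells. Sorcs2, a sorting receptor that works with Ngfr, was at 0 and 0.106 CPM among GFP cells and 0.935 and 1.29 CPM among tdTomato cells. Bdnf measured 144 and 27.8 CPM against 30.6 and 43.5 CPM. Of the 84 tested genes of the other lists, Bdnf was nearest to S100b over the 4 libraries, with a root mean square difference of 0.39 in mean-centred log2 CPM. Adam17 was nearest to L1cam, at 0.92.

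For the GDNF family, to which Gfra3 belongs, the related co-receptor Gfra2 measured 0.397 and 0.532 CPM among GFP cells and 6.35 and 39.0 CPM among tdTomato cells, and its ligand Nrtn 1.11 and 4.79 CPM against 7.55 and 18.3 CPM. In each pair both genes lay at least 2-fold lower in GFP, as did 24% of all genes. Gfra4 differed between suspensions, at 37.8 and 0 CPM among GFP cells and 9.28 and 35.9 CPM among tdTomato cells. In the family of L1cam, Chl1 and Nrcam had at most 8 counts in any library. Cntn1, an axonal partner of this family, was at 0.0793 and 0.106 CPM among GFP cells and 0.802 and 4.03 CPM among tdTomato cells. Ank2, the adaptor that binds its cytoplasmic tail, was at 191 and 225 CPM against 178 and 138 CPM, and Nrp1, a receptor that binds L1cam, at 1.83 and 43.2 CPM against 64.9 and 27.6 CPM. edgeR's test called no gene of the neurotrophin, GDNF or L1 lists.

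The summed level of markers of cartilage, whose cells also express S100b, was highest in female GFP. All 8 cartilage markers had at least 10 counts in that library, against 3 in male GFP and 4 in each tdTomato library, and their summed level was 500 CPM there against 94.8, 106 and 114 CPM in female tdTomato, male GFP and male tdTomato. In the female pair 6 of the 8 were at least 2-fold higher in GFP, as were 22.9% of all genes with at least 10 counts in that pair. Col9a1, a cartilage collagen, had 1680 counts in female GFP and at most 5 elsewhere. Sox9, the cartilage regulator, measured 150 and 0.213 CPM in the female and male GFP libraries and 76.6 and 74.4 CPM in their tdTomato partners, and Col11a2 29.4 and 15.0 CPM among GFP cells and 1.40 and 0.287 CPM among tdTomato cells. Acan, the cartilage proteoglycan aggrecan, went the other way between the suspensions, at 17.6 and 66.8 CPM among GFP cells and 11.2 and 23.0 CPM among tdTomato cells. Comp, a cartilage matrix protein, was at 26.9 and 22.4 CPM among GFP cells and 5.14 and 15.7 CPM among tdTomato cells. The part of these cells in the S100b and Cdh19 levels was not tested.

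Of 12 melanocyte genes, 10 had a row, and their summed level was 241 and 137 CPM in female and male GFP against 121 and 93.8 CPM in tdTomato. Dct and Tyr, enzymes of pigment synthesis, made up most of it. Dct stood at 127 and 114 CPM among GFP cells and 35.1 and 39.8 CPM among tdTomato cells, and Tyr at 84.7 and 19.1 CPM against 38.0 and 18.6 CPM. Mitf, the melanocyte regulator, went the other way, at 0.238 and 2.66 CPM among GFP cells and 13.2 and 7.48 CPM among tdTomato cells, as did Kit (0 and 0.213 against 7.68 and 19.9 CPM) and Sox5 (0.952 and 0.213 against 6.01 and 7.55 CPM). Tyrp1 and Pmel had at most 3 counts. Neuronal genes were low, 7 of 14 having at most 3 counts in every library, with a summed level of 10.9 and 24.4 CPM among GFP cells and 67.1 and 60.2 CPM among tdTomato cells. Of these, Stmn2 measured 0 and 0.106 CPM among GFP cells and 22.9 and 20.2 CPM among tdTomato cells, and Uchl1 2.62 and 24.1 CPM against 42.2 and 26.2 CPM. The sum for endothelium was 16.7 and 12.7 CPM among GFP cells and 412 and 272 CPM among tdTomato cells. For macrophages it was 30.9 and 0.852 CPM against 46.2 and 162 CPM, and for fibroblasts 3932 and 662 CPM against 3848 and 4610 CPM. Ngfr was thus read in the library with the highest macrophage and fibroblast sums. The myelin sum was also highest there, at 317 CPM, of which Pmp22 made up 247 CPM. It was 179 CPM in female tdTomato and 196 and 108 CPM in female and male GFP. The part of macrophages, fibroblasts or glia in the Ngfr level was not tested.

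**Figure D4:**
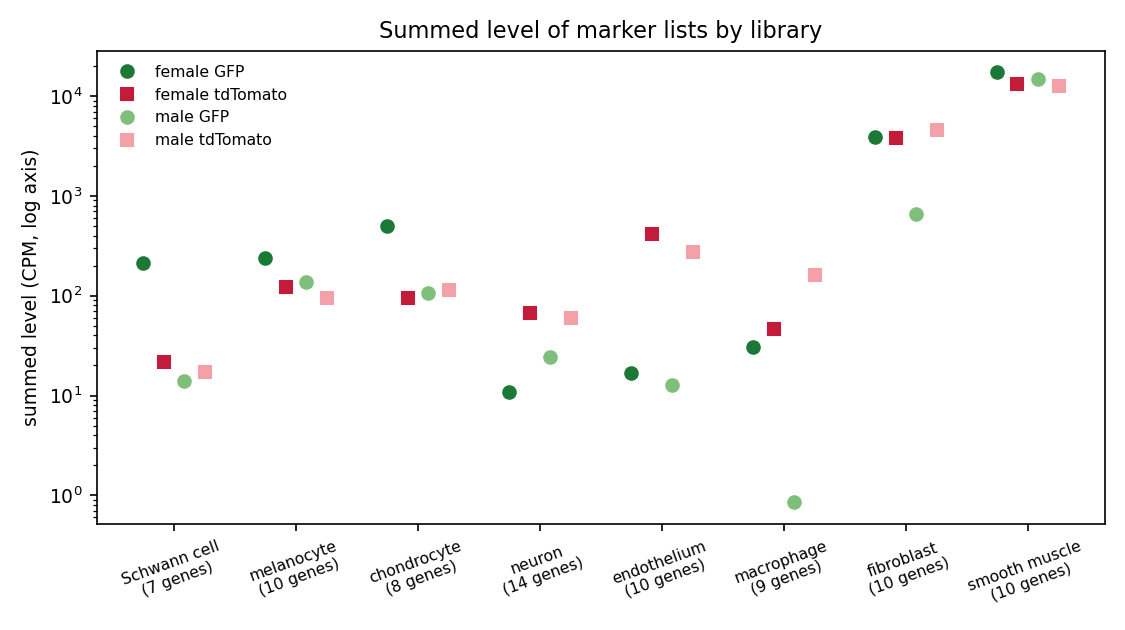
Summed level in CPM (log axis) of the listed Schwann cell genes and of 7 marker lists, 1 symbol per library, with the number of genes that had a row. Values are to be compared between libraries within a list. The Schwann cell sum is 215 CPM in female GFP and 13.9 to 21.5 CPM in the other libraries, and the cartilage sum is also highest in female GFP.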

How the data were processed

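Polyadenylated RNA was copied with SMART-Seq v4, amplified and sequenced in pairs, per the labels' protocols. The submitters' processing notes name fastp, HISAT2, StringTie and GRCm39, without versions. Which program counted is not given in the sources used here. Deposited by the authors were expected counts, that is estimated reads per gene with decimals and unscaled (59.4% to 69.1% whole, tolerance 1e-06). They were rounded. GENCODE M21 supplied symbols for 76.4% of genes, and transcript lengths.

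CPM used library totals with TMM factors (0.922, 1.08, 0.930 and 1.08). A prior count of 2 entered log2 ratios but not single-gene folds, which have exact 95% binomial intervals covering counting error only. edgeR 4.0.16 (R 4.3.3) tested genes kept by filterByExpr at 10 counts, with suspension as a block and 1 residual degree of freedom. Pairing comes from the sort; deviations of paired libraries correlated at r = 0.0548 across genes. The script was tested on simulated data. DESeq2 1.42.0, limma-voom 3.58.1, other scalings, filters, prior counts and left-out libraries were alternatives.

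The members and 13 other lists were chosen with earlier results of these data known. Named were all members, the 2 most abundant genes of each other Schwann, signalling or neighbouring-cell list, and up to 3 in each direction at least 2-fold apart in both pairs; endothelial, macrophage, fibroblast and smooth muscle lists are given as sums. Overlapping genes, further list members at low counts and single-library genes were named after their values were seen. Counts and sums over the gene lists include some members whose own values are left out here.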

Additional observations from a re-analysis of the deposited data

Results flagged for a closer look

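S100b was picked out because the female and male pairs lay on opposite sides of equality. Its log2 ratio of GFP over tdTomato was 3.25 for the female libraries and -0.31 for the male libraries, a difference of 3.56. With 1 library per sex and colour the difference was not tested, and the counting interval of the male fold, 0.601 to 1.06, includes equal levels. Across the libraries the level was 64.1 CPM in female GFP and 6.61 to 10.4 CPM in the other 3.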

How the results depend on the processing

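The count of genes called was 0 with edgeR's quasi-likelihood test under the main settings (1295 at an unadjusted p under 0.05), with other scalings and filters, without the replicate block for suspension, and in all 4 fits that left out 1 library and the block. limma-voom called 0, whereas DESeq2 called 1157; the cause was not tested. Without the replicate block the ratio of S100b was 2.09 and that of L1cam 0.76, both uncalled. The L1cam ratio turned sign without female GFP (-0.47) and without male tdTomato (-0.17), and was 4.89 without female tdTomato and 1.47 without male GFP, all 4 without the block; the cause was not tested. The lone library of a colour is then assumed to vary like the others. The S100b ratio stayed on the GFP side in all 11 alternatives, from 0.04 to 2.93. DESeq2's size factors shifted the median log2 ratio of all genes by 0.12 (female) and 0.22 (male), and library totals alone by -0.22 and -0.20; under both, S100b and L1cam kept their direction in each pair. The number of listed genes at least 2-fold apart in both pairs was 0 under the 4 other prior counts and scalings, and taking the male or the female pair alone gave 2 and 2, since a single pair then decides. The 3 genes apart between the GFP libraries were 3 under each of the same 4 settings. With 1 library per combination, depth limits statements on Sox10, Mbp and Gfra3 to levels below about 3 counts.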

Other observations

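Several other genes of the signalling and pigment lists were read, like Cdh19 and Ngfr, in 1 library alone; they were picked after their values were seen. Ret, the signalling receptor that Gfra3 partners, had 365 counts in male tdTomato (26.2 CPM) and 0 in the other 3. Artn, the ligand of Gfra3, had 167 counts in female tdTomato (11.2 CPM) and 0 in the other 3. Nrg2 had 31 counts in female GFP and 0 elsewhere, and Nrg4 had 146 in female GFP and at most 2 elsewhere. Gpnmb, a membrane glycoprotein of pigment cells and macrophages, had 354 counts in female GFP and at most 3 elsewhere. Erbb4, which also binds neuregulins, split by suspension, with 157 and 271 counts in male GFP and male tdTomato and 0 in both female libraries. Artn and Ret were thus read in different libraries. Gfra3 had at most 2 counts in any library, so whether it was read together with them could not be assessed. Scn7a, a sodium channel of non-myelinating Schwann cells, was read throughout, at 38.0 and 199.7 CPM among GFP cells (female, then male) and 45.5 and 59.95 CPM among tdTomato cells.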
